A study of Mus musculus with 8 samples.

Results

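The AP-1 and early stress response genes described here are 10 genes taken by name, Fos, Fosb, Jun, Junb, Jund, Batf, Atf3, Ier2, Ier3 and Dusp1, out of 24203 genes named on the arrays. They are read by 14 of 44170 features, and Jun, Junb, Jund and Atf3 have more than 1 feature each. Total RNA of tissue labelled spleen from 4 miR-155 knockout mice, named Mim1-5, Mim1-6, Mim2-2 and Mim2-3, and from 4 wild-type mice, WT-1 to WT-4, was labelled with Cy3 and read on 1-colour expression arrays. Mim1-5 and Mim1-6 are labelled female and Mim2-2 and Mim2-3 male, while WT-1 and WT-3 are labelled female and WT-2 and WT-4 male. The labels give the genotype, the tissue and the sex, and no age, strain or treatment is given in the sources used here. Each array was taken as 1 animal.

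AP-1 is a dimer of basic leucine zipper proteins in which a Jun protein pairs with another Jun, a Fos or an ATF/BATF protein. Fos, Fosb, Jun, Junb, Atf3, Ier2, Ier3 and Dusp1 are early response genes, whose transcription starts within minutes of a growth signal or of cell stress, without new protein synthesis. MAP kinases drive much of this response, and Dusp1 encodes a phosphatase that switches MAP kinases off. In the spleen the response follows antigen receptor and cytokine signals in lymphocytes and myeloid cells, and AP-1 is known to activate transcription of the miR-155 host gene in stimulated B cells. Mature miR-155 is the small RNA absent from the knockout by its label, and it is shown here with its seed, bases 2 to 8, in capitals, from RefSeq.
mmu-miR-155-5p: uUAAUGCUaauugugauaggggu

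The promoters are shown because 6 of the 9 members with a RefSeq promoter hold the letters TGACG, the core of the CRE-type element that ATF and Jun dimers bind. Each promoter is the stretch from 250 bases before to 50 bases after the annotated start in build GRCm38.p6, and both strands were searched. The TGACG core occurs in 20.8% of 32851 promoters of that length. The full palindrome TGACGTCA, which contains the core on both strands, was found in Dusp1 alone among the members and in 1.79% of all promoters. The AP-1 letters TGANTCA were found in 0 of the 9 and in 7.81% of all. A match describes letters in a window and does not mark a bound site. The windows below are read on the strand of the gene with the core in capitals, and each extends 20 bases beyond the outermost core, save that Atf3 shows the core as CGTCA, its reading from the other strand.
Fos: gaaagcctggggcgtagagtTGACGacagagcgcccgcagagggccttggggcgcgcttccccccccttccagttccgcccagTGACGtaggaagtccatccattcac
Fosb: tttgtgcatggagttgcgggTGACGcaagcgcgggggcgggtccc
Batf: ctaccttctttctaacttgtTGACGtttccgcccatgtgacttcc
Atf3: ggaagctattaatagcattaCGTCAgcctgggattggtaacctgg
Dusp1: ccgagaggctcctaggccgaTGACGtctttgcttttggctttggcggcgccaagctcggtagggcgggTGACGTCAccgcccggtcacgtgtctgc

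In Fos these windows hold the core at 129 and 66 bases before the start (chr12:85473741-85473848, plus strand). In Fosb it lies 60 bases before the start (chr7:19310081-19310125, minus strand), and in Batf 98 bases before it (chr12:85686602-85686646, plus strand). In Atf3 it lies 7 bases before the start (chr1:191183316-191183360, minus strand). In Dusp1 one core lies 191 bases before the start and the palindrome begins at 143 (chr17:26508588-26508683, minus strand). Junb and Ier3 had the lowest knockout values relative to wild type of the 10 members, so their promoters are given whole. Junb holds 1 core, 106 bases before the start (chr8:84978699-84978998, minus strand), and Ier3 holds 0 (chr17:35821463-35821762, plus strand).
Junb: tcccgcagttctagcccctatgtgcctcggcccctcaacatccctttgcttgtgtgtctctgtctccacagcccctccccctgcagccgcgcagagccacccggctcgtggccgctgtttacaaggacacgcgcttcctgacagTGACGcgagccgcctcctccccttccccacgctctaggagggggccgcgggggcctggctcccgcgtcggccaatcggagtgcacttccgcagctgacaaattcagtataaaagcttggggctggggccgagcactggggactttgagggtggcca
Ier3: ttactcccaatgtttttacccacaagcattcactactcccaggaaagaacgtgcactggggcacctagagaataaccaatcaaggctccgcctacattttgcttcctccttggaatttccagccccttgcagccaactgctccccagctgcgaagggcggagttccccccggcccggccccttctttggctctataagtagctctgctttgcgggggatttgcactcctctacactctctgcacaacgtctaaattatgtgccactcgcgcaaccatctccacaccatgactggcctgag

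The arrays had median intensities of 112.1 to 119.1 and random probes at 30.7 to 37.7 on the linear scale. Log2 intensities over all features correlated at 0.911 to 0.943 among the arrays other than Mim2-2 and Mim2-3. Both Mim2 arrays correlated with those 6 at 0.811 to 0.877 and with each other at 0.874, so they stand apart. Among knockouts the labelled sex coincides with the Mim1 or Mim2 name, and these cannot be told apart. Xist, the X inactivation transcript, had log2 intensities of 8.35 to 11.1 over both its features, above the random probes on all 8 arrays. Its features averaged 10.05 and 9.95 in labelled males, against 9.96 and 10.13 in labelled females, so Xist did not separate the labelled sexes. The Y-linked gene Ddx3y was above the random probes on all 8 arrays at 3 of its 4 features, labelled females included. One such feature read 8.83, 8.39, 8.78 and 8.66 in the knockouts, against 7.25, 7.33, 6.82 and 6.26 in the wild types. At 3 of the 4 features every knockout lay above every wild type, so Ddx3y followed the genotype and not the labelled sex. On each array 81.1% to 85.1% of all features lay above the random probes, so that alone says little. Both Xist features also differed in sign, with knockout minus wild type at 0.37 and -1.04. Whether the Xist and Ddx3y probes read other transcripts was not tested. The sex labels, used below as a term and for the values within each sex, are in doubt, as neither gene separated them. The BIC transcript, from which miR-155 is processed, read 7.51, 5.37, 5.28 and 5.46 in the knockouts, against 5.27, 4.84, 4.85 and 5.63 in wild types 1 to 4. That feature did not pass (limma, adjusted p = 0.521), and since its probes may lie outside the deleted part it checks nothing about the genotype. The B cell, T cell and macrophage lists each had 6 of 6 markers above the random probes on all 8 arrays, as had 9 of 12 mammary epithelium markers. At least 15831 of the 24203 genes were also above them on all 8 arrays, so these counts alone do not mark a tissue. Csn2, a milk casein that is no marker of spleen, read 13.67, 12.16, 8.22 and 13.90 in the knockouts, against 15.35, 15.35, 15.41 and 14.90 in the wild types. Whether the RNA came from spleen alone is thus in doubt, and the tissue is named here by its label.

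Across all 8 arrays 0 of the 10 members passed an adjusted p of 0.05 between knockout and wild type (limma with labelled sex as an additive term, adjusted p from 0.269 to 0.977). The same fit called 0.0% of 44170 features, while 6122 features had an unadjusted p under 0.05. With limma's trended and robust variance it called 16 features, again with 0 members. Of the members 5 had a positive difference and 5 a negative one, with a median log2 difference of -0.01, beside 0.06 over all genes. Junb and Ier3 had an unadjusted p under 0.05, both lower in the knockout, beside 6.61% of all genes in that direction. The knockout and wild-type values overlapped for all 10 members, while 7.83% of all genes did not overlap.

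**Figure D1:**
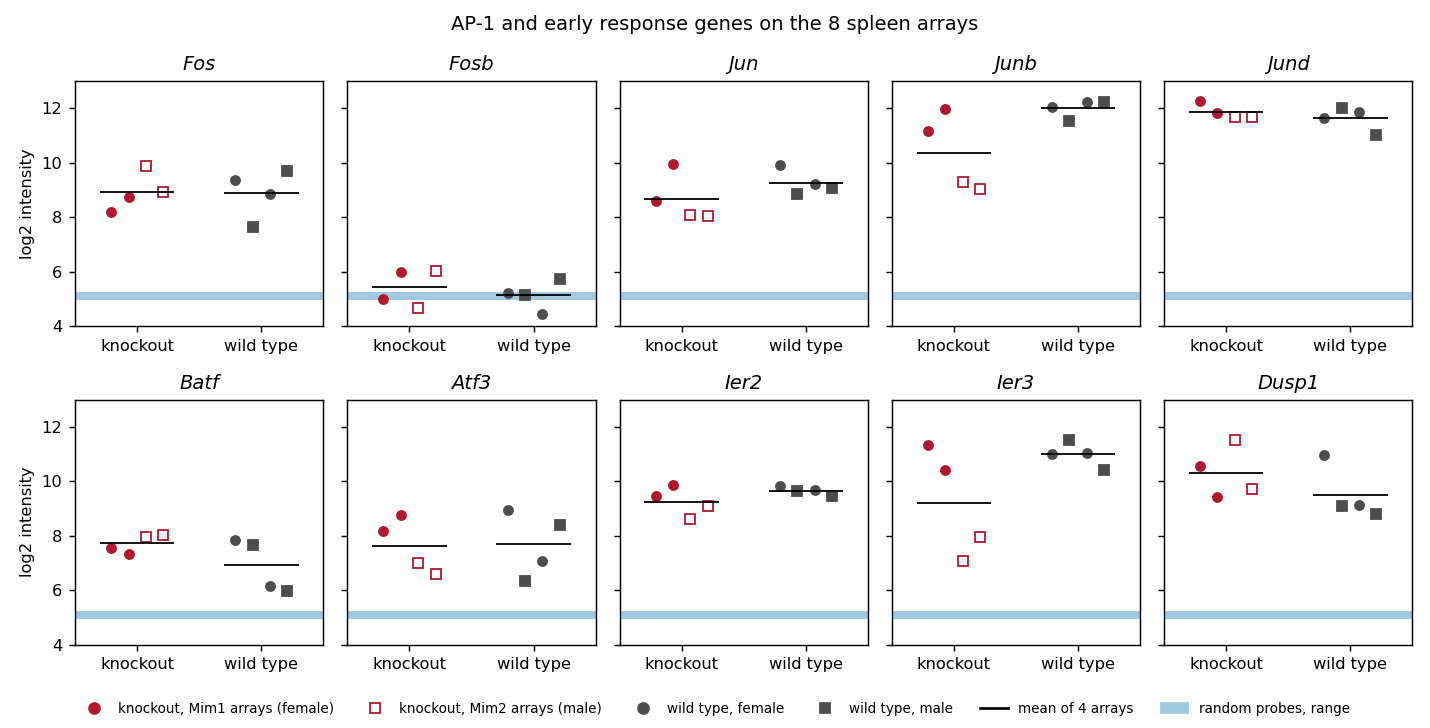
Log2 intensity (y axis) of the brightest feature of each member in the 4 knockout arrays, left, and the 4 wild-type arrays, right. Circles are labelled females and squares labelled males, open symbols are both Mim2 arrays, bars are means of 4 arrays and the band is the range of the random probes. Levels of different genes are read by different probes and are not comparable. Junb and Ier3 show open squares below all other symbols, and no gene has separate genotypes.

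The Jun proteins are the partner common to most AP-1 dimers. Junb, a Jun protein that often restrains c-Jun and is prominent in lymphocytes and myeloid cells, occupies chromosome 8, positions 87500808 to 87502594 (build MM9, as for all features below). On the log2 scale, with the animals in the order Mim1-5, Mim1-6, Mim2-2 and Mim2-3 and then WT-1 to WT-4, it read 11.15, 11.98, 9.28 and 9.04 in the knockouts, against 12.06, 11.54, 12.24 and 12.24 in the wild types. Both Mim2 values lay far below every other value. Mim1-5, at 11.15, also lay below every wild type, and Mim1-6 lay among the wild types. The knockouts averaged 10.36 ± 1.43 and the wild types 12.02 ± 0.33 (SD, n = 4 each). Knockout minus wild type was -1.66 (SE 0.47, 95% interval -2.72 to -0.60), 3.16-fold lower in the knockout, and it did not pass (limma, adjusted p = 0.269). Without both Mim2 arrays it was -0.59 (adjusted p = 0.882). The second Junb feature gave -1.71 (adjusted p = 0.266), and both features of the gene stayed within 0.439 of each other on every array.

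Jun, which encodes c-Jun, lies on chromosome 4 from 94716878 to 94718847. It read 8.61, 9.94, 8.09 and 8.03 in the knockouts, against 9.90, 8.85, 9.23 and 9.08 in the wild types. Both Mim2 arrays were again the lowest of the 8, while Mim1-6 was the highest. The log2 difference was -0.60 (SE 0.37), not past the threshold (limma, adjusted p = 0.488), and the second feature gave -0.32 (adjusted p = 0.745).

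Jund, a Jun protein that is expressed in resting cells and is not a typical early gene, lies on chromosome 8 from 73222864 to 73224515. It read 12.26, 11.82, 11.68 and 11.66 in the knockouts, against 11.64, 12.02, 11.87 and 10.999 in the wild types. At this brighter feature the knockout values lay inside or just above the wild-type range, and the Mim2 arrays were not apart. The other feature read 12.32, 11.32, 10.84 and 10.32 in the knockouts, against 11.82, 11.86, 12.13 and 11.05 in the wild types, and there both Mim2 arrays were the lowest of the 8. Its features disagreed in sign, with 0.22 (SE 0.31, adjusted p = 0.776) at the brighter and -0.51 (SE 0.36, adjusted p = 0.549) at the other, and neither passed. They were 1.35 apart on Mim2-3.

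The Fos proteins bind DNA as AP-1 only with a partner. Fos, the classic early response gene, lies on chromosome 12 from 86814850 to 86818219. It read 8.17, 8.74, 9.87 and 8.92 in the knockouts, against 9.36, 7.63, 8.84 and 9.69 in the wild types. The highest array was Mim2-2 and the lowest WT-2, and both genotypes covered most of the same range. The means were 8.92 ± 0.71 in knockouts and 8.88 ± 0.90 in wild types (SD, n = 4 each), with a difference of 0.05 (SE 0.52, 95% interval -1.13 to 1.22, limma adjusted p = 0.977). A difference of up to about 1 on the log2 scale in either direction lies within that interval.

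Fosb, on chromosome 7 from 19890145 to 19894949, was dim. It read 5.00, 5.97, 4.68 and 6.02 in the knockouts, against 5.23, 5.15, 4.44 and 5.71 in the wild types, and lay above the random probes on 3 arrays of each genotype. These values lie close to the random probes, whose log2 level was 4.94 to 5.24. For Fosb the difference was 0.28 (SE 0.42), not past the threshold (limma, adjusted p = 0.790). Fosb was the 1 member not above the random probes on all 8 arrays.

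The ATF and BATF proteins bring Jun to other sites. Batf, which pairs with Jun proteins and acts with IRF4 or IRF8 in lymphocytes, lies on chromosome 12 from 87027835 to 87050009. It read 7.54, 7.34, 7.96 and 8.03 in the knockouts, against 7.85, 7.65, 6.14 and 5.97 in the wild types. WT-3 and WT-4 stood more than 1 below the other 6 arrays, which themselves spanned 7.34 to 8.03. The log2 difference was 0.81 (SE 0.49), not past the threshold (limma, adjusted p = 0.478). It was 0.40 without WT-4 and 1.23 without WT-1.

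Atf3, a stress-induced repressor of many inflammatory genes, lies on chromosome 1 from 192994175 to 193007212. It read 8.18, 8.77, 6.995 and 6.58 in the knockouts, against 8.93, 6.34, 7.07 and 8.40 in the wild types. High and low arrays occurred in both genotypes and in both labelled sexes of the wild type. The difference was -0.06 (SE 0.56, limma adjusted p = 0.973) at this feature and 0.25 (adjusted p = 0.864) at the second. The features were 1.10 apart on Mim1-6.

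The remaining members are not AP-1 subunits. Ier3 encodes a stress-induced protein that modulates cell survival, and it lies on chromosome 17 from 35958657 to 35959856. It read 11.34, 10.42, 7.05 and 7.97 in the knockouts, against 10.99, 11.53, 11.03 and 10.42 in the wild types. The Mim1 arrays matched the wild-type range, and both Mim2 arrays lay more than 2 below it. The means were 9.19 ± 2.02 in knockouts and 10.99 ± 0.45 in wild types (SD, n = 4 each). The difference of -1.80 (SE 0.67, 95% interval -3.30 to -0.29), 3.47-fold lower in the knockout, did not pass (limma, adjusted p = 0.314). Without both Mim2 arrays it was -0.13 (adjusted p = 0.982).

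Ier2, an early response gene with a nuclear product, lies on chromosome 8 from 87185233 to 87186736. It read 9.44, 9.84, 8.63 and 9.09 in the knockouts, against 9.81, 9.62, 9.67 and 9.44 in the wild types. Both Mim2 arrays were the lowest, as for Jun, Junb and Ier3. For Ier2 the difference was -0.39 (SE 0.29), not past the threshold (limma, adjusted p = 0.567).

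Dusp1, the MAP kinase phosphatase, lies on chromosome 17 from 26642535 to 26645404. It read 10.57, 9.44, 11.53 and 9.71 in the knockouts, against 10.95, 9.07, 9.11 and 8.80 in the wild types. Mim2-2 was the highest array and WT-1 the next, so the highest values came from different genotypes. The log2 difference was 0.83 (SE 0.60), not past the threshold (limma, adjusted p = 0.559). It was 0.29 without Mim2-2 and 1.37 without WT-1.

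At the brightest feature of each gene, Jun, Junb, Ier2 and Ier3 had both Mim2 arrays below the other 6 arrays, and Batf had both above. That is 5 of 10 members, beside 30.7% of all genes with both Mim2 arrays outside the other 6. The means of both Mim2 arrays minus the means of the other 6 were -3.44 for Ier3, -2.71 for Junb, -1.21 for Jun, -0.78 for Ier2 and 0.91 for Batf, on the log2 scale. For Batf the Mim2 values, 7.96 and 8.03, lay just above WT-1 at 7.85. The low Batf values of WT-3 and WT-4, 6.14 and 5.97, bring down the mean of the other 6. Fos, Fosb, Jund, Atf3 and Dusp1 had at least 1 Mim2 value within the range of the other arrays at their brightest feature. The dimmer Jund feature had both Mim2 arrays below the other 6, with a mean difference of -1.17.

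Marker levels of several cell types also differed between arrays, some on the Mim2 arrays and some between the genotypes. The mean log2 intensity of 12 mammary epithelium markers was 10.73, 10.40, 8.29 and 9.47 in the knockouts, against 11.56, 11.44, 11.40 and 11.76 in the wild types, lowest on both Mim2 arrays. Of these 12 genes 6 had both Mim2 arrays below the other 6 and Krt19 had both above. Among all 24203 genes 3484 had both below and 3942 both above. Krt8, a keratin of simple epithelia, read 12.35, 12.32, 8.42 and 8.80 in the knockouts, against 12.998, 12.28, 11.91 and 12.43 in the wild types. Thus Krt8 was low on both Mim2 arrays, as Junb and Ier3 were. Other genes of the list did not follow, such as Csn2 at 13.90 on Mim2-3 and Csn1s2a at 10.34 on Mim2-2, each above both Mim1 arrays. Whether these patterns are linked was not tested.

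The mean of 5 adipocyte markers was 7.27, 7.56, 11.02 and 10.75 in the knockouts, against 7.82, 7.78, 7.63 and 7.76 in the wild types, and 5 of 5 were highest on both Mim2 arrays. Cidec, a lipid droplet protein, read 5.05, 5.31, 11.88 and 11.38 in the knockouts, against 6.38, 5.22, 5.64 and 5.92 in the wild types. The 6 T cell markers were all highest on the Mim2 arrays, as were 4 of 6 B cell markers, beside 3942 of all 24203 genes. The mean of the 6 B cell markers was 9.87, 9.45, 10.55 and 10.29 in the knockouts, against 9.20, 8.86, 8.94 and 8.60 in the wild types, so every knockout lay above every wild type. The mean of 8 exocrine pancreas markers was 8.28, 7.16, 7.90 and 7.47 in the knockouts, against 5.93, 5.82, 6.11 and 5.89 in the wild types. It too was higher in every knockout, the Mim1 arrays included. Of the 8 genes 4 were free of overlap, beside 7.83% of all genes. Above the random probes on all 8 arrays were 4 of the 8, beside at least 15831 of the 24203 genes. The part of adipocytes, lymphocytes and pancreas in the member values was not tested. With the mammary list's mean as a further term the knockout minus wild type difference was -0.36 for Junb (SE 0.78, limma adjusted p = 0.979). For Ier3 it was 0.83 (SE 0.82, limma adjusted p = 0.950). That mean itself was lower in every knockout than in every wild type, so this fit cannot tell the mammary list apart from the genotype. In bulk tissue, fewer cells of a type and less RNA per cell cannot be told apart.

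**Figure D2:**
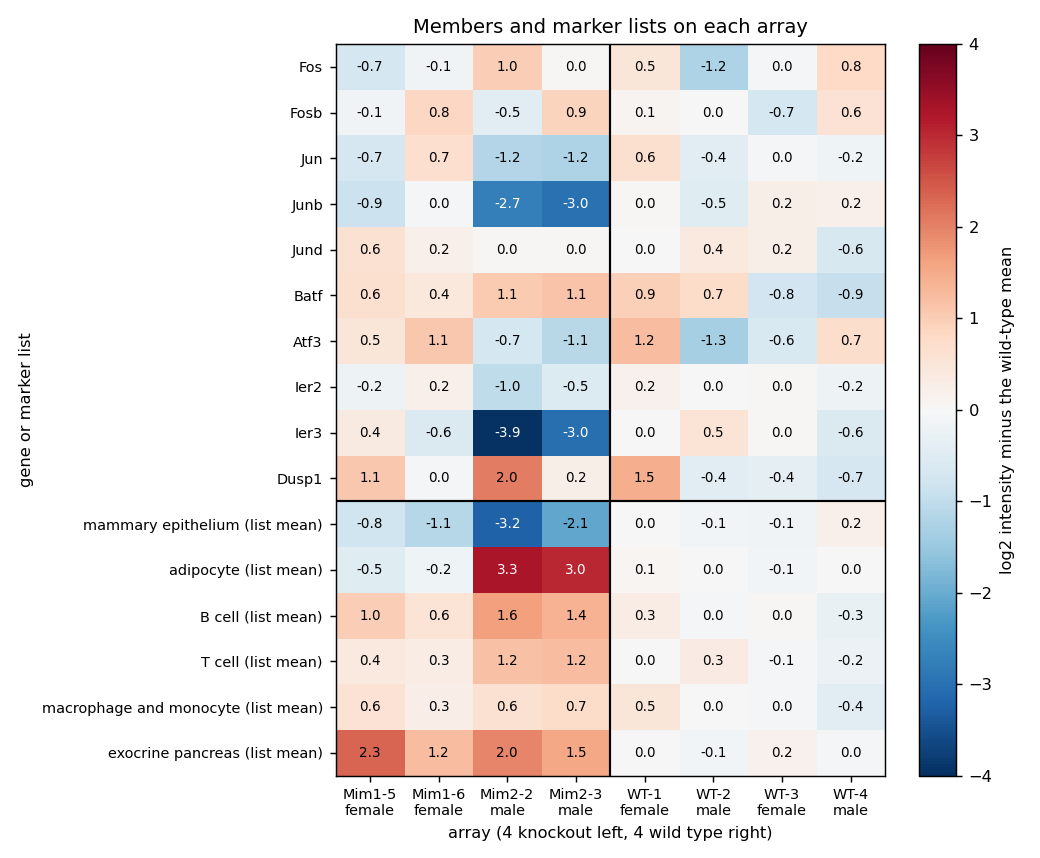
Log2 intensity minus the wild-type mean (colour and printed value) of the 10 members, above the line, and of 6 marker list means, below it, on each array, with knockouts left and wild types right. Both Mim2 columns hold the lowest values of Junb, Ier3 and the mammary list and the highest of the adipocyte list.

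The genotype difference was next taken within each labelled sex, from a fit with the interaction of genotype and labelled sex. Within labelled males, where the knockouts are both Mim2 arrays, Ier3 was lower by a log2 difference of -3.46 (SE 0.54, 95% interval -4.73 to -2.20, limma adjusted p = 0.0260), 11.04-fold. Junb was lower there by -2.73 (SE 0.44, 95% interval -3.74 to -1.72, limma adjusted p = 0.0267), 6.62-fold, and its second feature gave -2.77 (adjusted p = 0.0226). These 2 of 10 members stand beside 3.35% of all features called lower within labelled males, and 2 arrays enter on each side. When 1 array of the 8 was left out in turn, Junb passed in 0 of 8 fits (adjusted p from 0.0507 to 0.180) and Ier3 in 1 of 8, the fit without Mim2-3 (adjusted p from 0.0289 to 0.180). The other 8 members did not pass within males (adjusted p from 0.251 to 0.952), with differences from -0.91 for Jun to 1.68 for Dusp1.

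Within labelled females, where the knockouts are both Mim1 arrays, 0 members passed (limma, adjusted p from 0.985 to 0.999) and 0.0% of all features were called, with 2274 features at an unadjusted p under 0.05. The difference for Junb was -0.59 (SE 0.44) and that for Ier3 -0.13 (SE 0.54), with a 95% interval for Ier3 of -1.39 to 1.14. The interaction itself, male minus female, was -3.34 for Ier3 (SE 0.77, limma adjusted p = 0.182) and -2.14 for Junb (SE 0.62, adjusted p = 0.236). It passed for 0 members and 0.0% of features, with 5872 features at an unadjusted p under 0.05, so the differences within males and within females were not shown to differ. With limma's trended and robust variance the interaction passed for 578 features and for Ier3 (adjusted p = 0.0347).

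**Figure D3:**
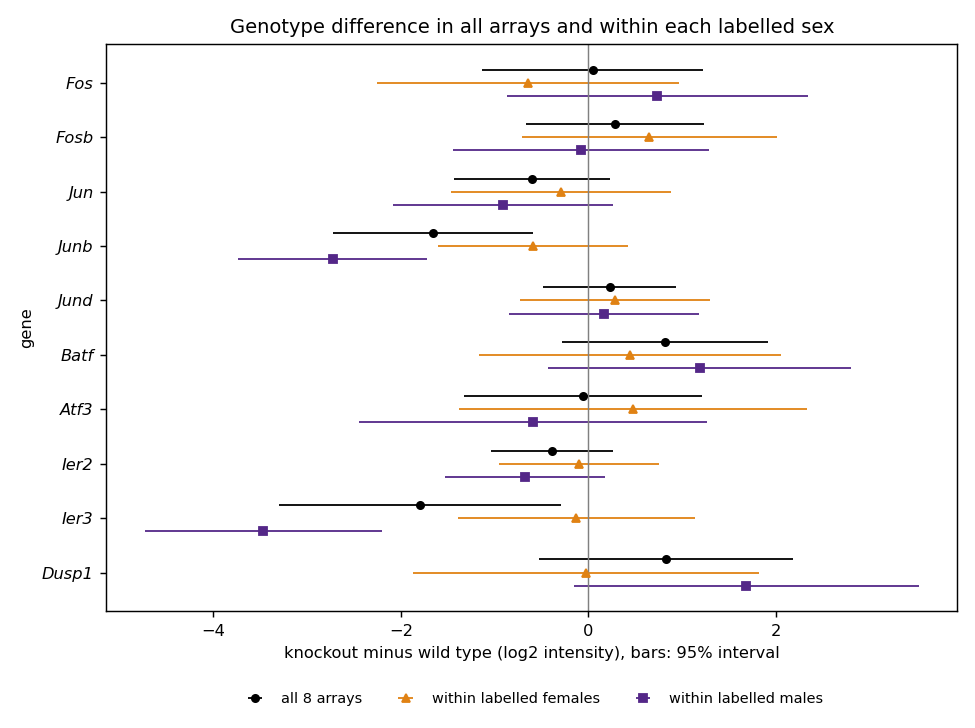
Knockout minus wild type log2 difference (x axis) of each member with its 95% interval, in all 8 arrays, within labelled females and within labelled males. The intervals of Junb and Ier3 lie below 0 in all 8 arrays and within males and cross 0 within females, and those of the other 8 members cross 0 throughout.

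Other genes of the pathway were read in 6 lists, with 71 genes measured. Of these 0 passed (limma, lowest adjusted p = 0.262), 18 had an unadjusted p under 0.05 in either direction, beside 14.3% of all genes, and the median log2 difference was -0.11, beside 0.06 over all genes. Map3k1, Zfp36l2, Klf2, Cebpb, Cebpd and Plaur were not analysed here. The genes named next are those with the smallest p of each list. That choice favours genes whose genotypes do not overlap, as 7.83% of all genes did not, so such separations below are no separate result.

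Of 12 other AP-1 family genes 2 had a positive and 10 a negative difference, with a median of -0.40, or -0.12 without both Mim2 arrays. Fosl2, a Fos-related subunit, read 10.09, 8.67, 8.17 and 6.63 in the knockouts, against 9.56, 9.45, 9.44 and 9.51 in the wild types. The knockouts were widely spread and the wild types almost equal, and the log2 difference was -1.10, not past the threshold (limma, adjusted p = 0.393). Without both Mim2 arrays the Fosl2 difference was -0.12. Atf7, an ATF2 relative, had a difference of -0.91 (adjusted p = 0.339), or -0.11 without both Mim2 arrays. Fosl1, the other Fos-related subunit, had -0.63 (adjusted p = 0.446), with values above the random probes on 6 of 8 arrays.

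Of the BATF partners, Irf8 read 11.49, 10.91, 11.87 and 11.55 in the knockouts, against 10.69, 10.87, 10.25 and 10.11 in the wild types. Every knockout lay above every wild type, though Mim1-6 and WT-2 were nearly equal. Irf8 gave a difference of 0.98, not past the threshold (limma, adjusted p = 0.291). Irf4 had -0.03 (adjusted p = 0.985). The median of both partners was 0.48, or -0.02 without both Mim2 arrays, where Irf8 still had 0.73 and Irf4 had -0.78.

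Of 18 genes of the MAP kinase and SRF input 6 had a positive and 12 a negative difference, with a median of -0.12, or 0.29 without both Mim2 arrays. Mapk8, which encodes the Jun kinase JNK1, had 0.89 (limma, adjusted p = 0.298) with every knockout above every wild type. Elk3, an SRF partner, had -0.79 (adjusted p = 0.304) with every knockout below every wild type. Mapk3, which encodes ERK1, had -1.23 (adjusted p = 0.303) over all arrays and -0.20 without both Mim2 arrays.

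Of 8 other DUSP phosphatases 5 had a positive and 3 a negative difference, with a median of 0.31, or 0.13 without both Mim2 arrays. Dusp2, a nuclear MAP kinase phosphatase of activated lymphocytes, read 9.18, 8.84, 9.73 and 9.52 in the knockouts, against 8.12, 8.28, 7.95 and 8.37 in the wild types. All 4 knockouts lay above all 4 wild types, also in the Mim1 pair. The log2 difference was 1.13 (SE 0.27), not past the threshold (limma, adjusted p = 0.262). Dusp10 had 1.14 (adjusted p = 0.286), again without overlap, and Dusp5 had -1.39 (adjusted p = 0.357).

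Of 20 other immediate early genes 6 had a positive and 14 a negative difference, with a median of -0.07, or -0.09 without both Mim2 arrays. Cyr61, a secreted matrix protein, had -1.04 (limma, adjusted p = 0.273) and did not overlap between genotypes. Rhob, a small GTPase, had -1.13 (adjusted p = 0.291), and Klf4, a zinc finger factor, 1.13 (adjusted p = 0.285). Without both Mim2 arrays Cyr61 had -0.62, Rhob -0.63 and Klf4 0.54.

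Of 11 AP-1 target genes 4 had a positive and 7 a negative difference, with a median of -0.08, or -0.41 without both Mim2 arrays. Spp1, which encodes osteopontin, read 8.70, 8.97, 7.77 and 8.02 in the knockouts, against 12.50, 9.18, 14.23 and 9.36 in the wild types. WT-1 and WT-3, the labelled females, were the high arrays, and the log2 difference was -2.95, not past the threshold (limma, adjusted p = 0.262). Ccnd1, the cell cycle gene cyclin D1, had -2.13 (adjusted p = 0.286) over all arrays and -0.41 without both Mim2 arrays. Mmp3, a matrix protease, had 1.15 (adjusted p = 0.317) over all arrays and 0.49 without both Mim2 arrays.

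**Figure D4:**
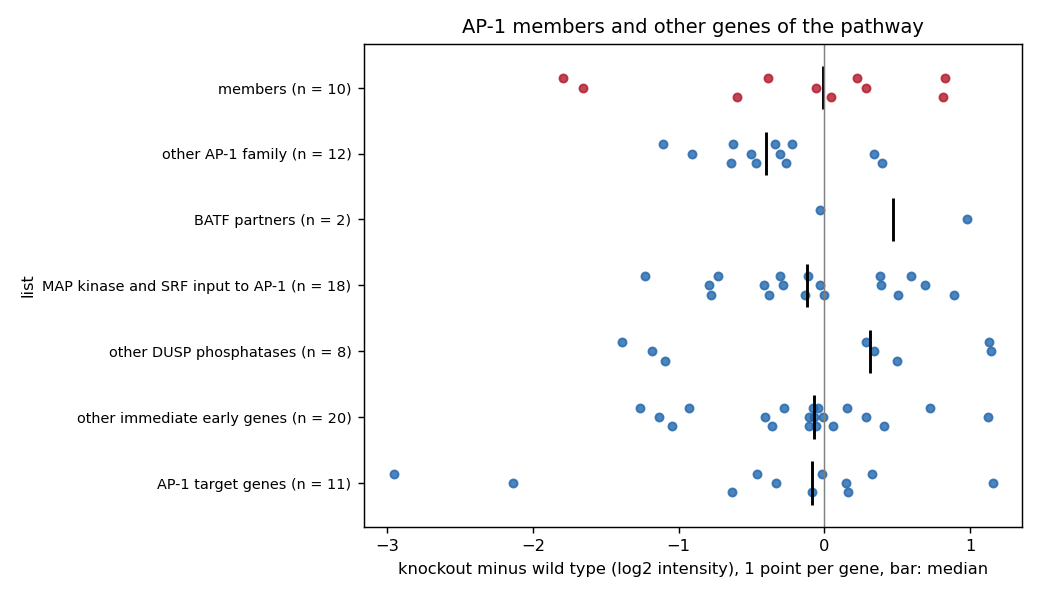
Knockout minus wild type log2 difference (x axis) of each measured gene, 1 point per gene, for the 10 members and the 6 pathway lists, with a bar at each median. Medians lie between -0.40 for the other AP-1 family and 0.48 for the BATF partners, a list of 2 genes. Without both Mim2 arrays the median of that list was -0.02, with Irf8 at 0.73 and Irf4 at -0.78.

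Genes of like pattern were taken as those whose log2 values, centred on their own mean, differed least from a member over the 8 arrays, among 15831 genes above the random probes throughout. Nearest to Fos were Tmem151b, Kpna1 and Tmem8, with root mean square differences of 0.161, 0.237 and 0.300, beside a median of 0.869 over all genes. Nearest to Jun were Epb4.1l5, Rgs20 and Ddx59, at 0.150, 0.227 and 0.231, beside a median of 0.853. Nearest to Batf were Igk-V21-4, Tcea3 and Skap1, at 0.139, 0.169 and 0.225, beside a median of 0.856. Igk-V21-4, an immunoglobulin kappa gene, read 10.22, 10.14, 10.86 and 10.80 in the knockouts, against 10.57, 10.68, 9.22 and 8.93 in the wild types. It was low on WT-3 and WT-4, as Batf was. Nearness to Batf was the rule of choice, so this likeness is no separate result, and a link was not tested. The distance is a description over 8 arrays that share 2 arrays standing apart.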

How the data were processed

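RNA labelled spleen of 8 mice was measured. The authors deposited, for every array, linear intensity values. The submitters' processing notes name RMA, which subtracts background, brings arrays to a common scale and combines the probes of each feature. Its version is not stated in what was used here. A standard error score in the deposited tables was left unused, as nothing used here says how it was made. The authors also deposited an intensity table of the series with 21856 features, used as an alternative. Values were taken to log2 without further normalization, and the entry of 5000 random probes served as background.

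Knockout minus wild type was fitted by limma 3.58.1 (lmFit, then eBayes; R 4.3.3) across all 44170 features. Labelled sex was an additive term, tests were two-sided, and Benjamini-Hochberg adjustment used a threshold of 0.05. A second fit held the genotype by sex interaction. The fits were also run on simulated data with independent noise and no gap of the Mim2 arrays over all features. That run therefore cannot show how the fits behave with the Mim2 arrays apart. The brightest feature by mean log2 intensity stands for a gene. The named genes are the members, the 3 genes with the smallest p of each pathway list and the 3 nearest in pattern to Fos, Jun and Batf. The members and lists were chosen with earlier results of these data known, so no p is adjusted over a list. Alternatives covered normalization, dim features, variance, weights, covariates, features, source and arrays left out. The labels do not say that arrays are separate cultures or litters. The p-values set each difference against the spread between arrays that the fit leaves. In the additive fit that spread holds part of the gap between the Mim1 and Mim2 arrays. The number of arrays limits the precision.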

Additional observations from a re-analysis of the deposited data

Results flagged for a closer look

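Of 20 groups of 4 arrays, 1 per member and genotype, 1 held an array far from the rest. Dusp1 in the wild types read 10.9 on WT-1, with the other 3 wild types at 9.07, 9.11 and 8.80. The gap to the nearest value was large relative to the range of the group, and chance gives such a gap in about 1 in 20 groups.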

How the results depend on the processing

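No paired analysis was possible because the labels do not pair animals. Over 19 alternatives of the genotype difference 0 members passed, with adjusted p of 0.123 to 0.979 for Junb and 0.179 to 0.982 for Ier3. With trend and robust variance 16 features passed over all arrays, 578 for the interaction (with 1 member, Ier3, at -3.34) and 4266 within males. The members with an unadjusted p under 0.05 numbered 1 with array weights, 1 with no sex term, 0 with the mammary mean as a term, 0 without both Mim2 arrays, and 1 to 4 with 1 array left out (4 without WT-1, and 1 without Mim2-2, Mim2-3, WT-2 or WT-4). Members without overlap numbered 0 to 3 with 1 array left out, with 3 without Mim1-6 and 1 without Mim1-5, WT-1 or WT-2. Full separation is easier with fewer arrays. The share of all genes without overlap is given here for all 8 arrays only, at 7.83%, so these counts are no result about the members. Within males, leaving out 1 array gave 0 to 1476 features and 0 to 1 members, with Junb at -3.08 to -2.38 and Ier3 at -4.02 to -2.91. In the interaction 2 to 3 members had an unadjusted p under 0.05. In the main fits 14.3% of all genes had such a p for the genotype difference, and 5872 of 44170 features for the interaction. The shares in the alternative fits are not given here, so the member counts at unadjusted p cannot be read as results about the members.

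Signs turned for differences that had not passed, and the cause was not tested. Array weights gave -0.0254 for Fos and 0.0288 for Atf3. The mammary mean as a term gave -1.10 for Fos, 0.75 for Atf3, 0.14 for Ier2, 0.83 for Ier3 and -0.90 for Dusp1. The mean over features gave -0.14 for Jund and 0.0949 for Atf3. Without both Mim2 arrays Fos had -0.64, Atf3 0.47 and Dusp1 -0.0250, while Junb had -0.59 (limma, adjusted p = 0.882) and Ier3 -0.13 (adjusted p = 0.982). With 1 array left out Fos ranged from -0.50 to 0.32, Atf3 from -0.54 to 0.46, Fosb from 0.02 to 0.63, Jun from -0.93 to -0.40, Junb from -2.04 to -1.30, Jund from 0.03 to 0.44, Batf from 0.40 to 1.23, Ier2 from -0.53 to -0.24, Ier3 from -2.31 to -1.24, Dusp1 from 0.29 to 1.37, Ier3 within females from -0.59 to 0.34, and the median of the members from -0.33 to 0.19.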

Other observations

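A further feature without a gene name, described in the tables as a JunB transcript, spans chromosome 8 from 87498382 to 87502617 in build MM9. It read 4.83, 4.65, 4.32 and 4.74 in the knockouts, against 4.96, 5.84, 5.04 and 3.83 in the wild types, near the random probes. Its knockout minus wild type difference was -0.28 (limma, adjusted p = 0.794). It was not counted among the members' features.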
